A study of Homo sapiens with 8 samples.

Results

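Myeloid cells at different stages of maturation carry different receptors, adhesion molecules and carbohydrate epitopes at their surface, and 10 genes that encode or build such markers were followed here after knockdown (KD) of the splicing regulator PTBP1. The genes were FUT4, ITGAM, ITGAX, ITGB2, CD14, CD33, CD36, CD68, CD86 and CD93. They were selected by name, and for each of them the counts of the annotated transcripts were summed to the gene. All 10 had at least 1 count among the 16474 genes with a count in the series, and 5 of the 10 were among the 7597 genes with enough counts to test.

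RNA came from MOLM-13 cells, a human acute myeloid leukemia line, that carried a lentiviral doxycycline (dox) inducible shRNA. The shPTBP1 group (4 biological replicates) held an shRNA against PTBP1 and the shSCR group (4 biological replicates, labelled as shControl cells) a scrambled one, so that each arm rests on 1 shRNA sequence in 1 cell line. The constructs of both groups also express mCherry at all times and ΔLNGFR together with the shRNA, and both groups received dox for 9 days. Total RNA was turned into cDNA, amplified and read as long nanopore reads. In the study, surface CD15 and CD11b were used as readouts of maturation, and the RNA behind these and other myeloid markers is what the libraries measure.

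As background, CD15 is not a protein but a fucosylated sugar chain, the Lewis X epitope, and FUT4 is the fucosyltransferase that makes much of it in myeloid cells. CD11b (ITGAM) and CD11c (ITGAX) are integrin alpha chains that reach the surface only in a dimer with the beta 2 chain CD18 (ITGB2). These dimers bind ICAM-1, fibrinogen and complement fragments, and they serve adhesion and phagocytosis in granulocytes and monocytes. CD33 is an inhibitory sialic acid receptor of early and later myeloid cells, CD68 is a lysosomal glycoprotein of monocytes and macrophages, CD36 is a scavenger receptor, CD14 is the co-receptor for lipopolysaccharide, CD86 is a co-stimulatory ligand for T cells and CD93 is a C-type lectin-like receptor.

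The libraries held between 1528449 and 1613342 counts and between 12322 and 12589 genes with a count. PTBP1 lay between 6.33 and 14.7 normalized CPM (counts scaled to a library of 1000000) in the shPTBP1 libraries and between 39.9 and 57.3 CPM in the shSCR libraries, a log2 fold change of -2.26 ± 0.22 (SE, n = 4 per group; edgeR adjusted p = 7.18e-05). Its paralog PTBP2 was at 118 to 131 CPM after KD and at 0.614 to 2.57 CPM in shSCR. Of 14 myeloid defining markers, 13 were detected. The exception was CSF2RA, at 0 counts in every library. It lies in a pseudoautosomal region, where reads can match both sex chromosomes and may be lost to a filter on mapping quality, which was not tested, so that this 0 is not read as absence. Their summed level was 8536 to 9963 CPM in shPTBP1 and 7462 to 8278 CPM in shSCR. Of 24 markers of T, B, erythroid, megakaryocyte and NK cells, 15 were at 0 in all libraries, including CD3D, CD3E, MS4A1 and PF4, and the sum of the list was 22.1 to 28.3 CPM in shPTBP1 and 22.1 to 51.3 CPM in shSCR.

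After PTBP1 KD the markers did not move in 1 direction. FUT4 and CD68 rose, by 1.48-fold and 1.28-fold, and ITGB2 fell to 0.604 of its shSCR level. CD33 and ITGAM did not pass the test, and CD14, CD36, CD86, CD93 and ITGAX were at or near the limit of detection in both groups. Of the 5 genes tested, 2 were called higher and 1 lower, where 2.36% of all genes tested were called higher and 3.19% lower (edgeR's quasi-likelihood test, Benjamini-Hochberg adjusted p under 0.05). In 4 of the 5, FUT4, CD68, CD33 and ITGB2, the values of the groups did not overlap, which was the case for 12.7% of all genes tested. The median log2 fold change of the 5 was 0.26, and that of all genes tested was -0.00014. ITGAM reached the minimum count in all 4 shSCR libraries but in only 1 shPTBP1 library, so it entered the test through the group in which it was higher.

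**Figure D1:**
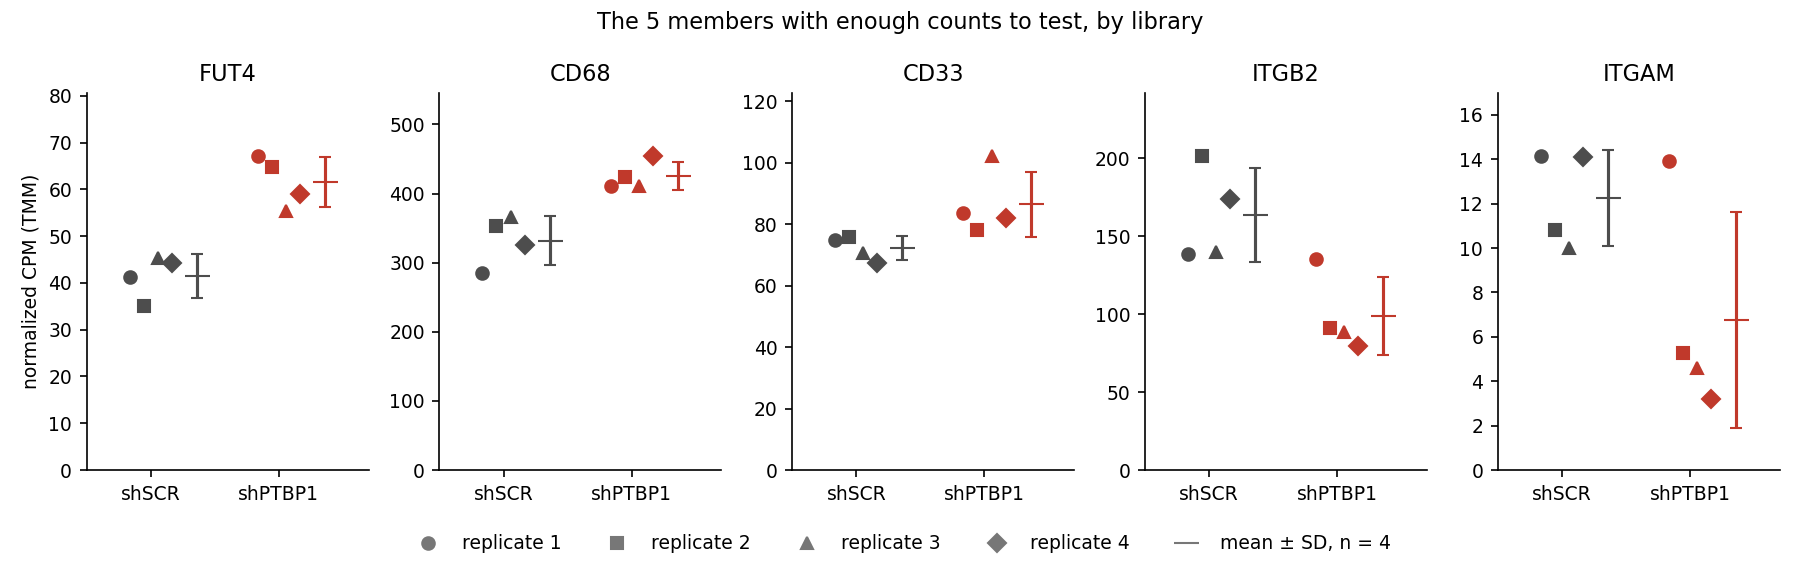
Normalized CPM (vertical axes, from 0 and on a scale of their own in each panel) of the 5 tested marker genes in the 4 shSCR (grey) and 4 shPTBP1 (red) libraries, with the mean ± SD of each group. FUT4, CD68 and CD33 are higher in every shPTBP1 library than in any shSCR library, ITGB2 is lower in every shPTBP1 library, and for ITGAM shPTBP1 replicate 1 lies among the shSCR libraries.

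Divided by transcript length, the mean level in shSCR was highest for CD68, at 194 CPM per kb. ITGB2 followed at 51.6 CPM per kb and CD33 at 49.5 CPM per kb, and these 2 genes overlapped in their values over the 8 libraries. FUT4 was at 6.94 CPM per kb, ITGAM at 2.60 CPM per kb, ITGAX at 0.604 CPM per kb and CD86 at 0.377 CPM per kb. FUT4 overlapped neither CD33 nor ITGAM, whereas the ranges of ITGAM and ITGAX and those of ITGAX and CD86 overlapped. CD14, CD36 and CD93 had no count in shSCR. In shPTBP1, CD33 was at 59.3 CPM per kb and ITGB2 at 31.1 CPM per kb, the reverse of their order in shSCR on this scale. Long reads can cover whole transcripts, so that counts need not grow with transcript length, which was not tested. Without division by length, the order of the genes in shSCR was the same, but FUT4 was closer to CD33, at 41.5 CPM. On that scale the mean of ITGB2 was above that of CD33 in both groups, at 163 and 72.2 CPM in shSCR and at 98.5 and 86.4 CPM in shPTBP1.

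FUT4 (ENSG00000196371.4), on chromosome 11 at 94543921 to 94549895 of GRCh38, was measured through a single isoform, FUT4-201 of 5975 bases. In the shPTBP1 libraries it was at 67.1, 64.7, 55.3 and 58.9 CPM in replicates 1 to 4, from 106, 98, 84 and 92 counts. In the shSCR libraries it was at 41.2, 35.0, 45.3 and 44.3 CPM, from 67, 55, 68 and 69 counts. All shPTBP1 libraries lay above all shSCR libraries, and the gap between the groups was wider than the distance between neighbouring replicates. The means were 61.5 ± 5.38 and 41.5 ± 4.64 CPM (SD, n = 4 each), and the log2 fold change was 0.57 ± 0.12 (SE; 95% interval 0.28 to 0.86; edgeR adjusted p = 0.0145). With 1 library left out at a time, FUT4 was called in all 8 fits at log2 fold changes of 0.50 to 0.62, with edgeR adjusted p between 0.0235 and 0.0492. PIWIL4, on the same strand, shares 602 exon bases with FUT4, and the PIWIL4 transcripts that overlap it held 4 counts over all libraries. In bulk RNA, more cells with a transcript and more of it per cell cannot be told apart, and the same holds for a fall.

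The stretches before the start sites of FUT4 and CD68 are shown because these 2 genes rose together. Both are read 5′ to 3′ on the plus strand, from RefSeq promoters on GRCh38.p14 (FUT4 at chr11:94543671-94543839 and CD68 at chr17:7579388-7579490), and end before the first annotated exon there. That exon can belong to another gene or isoform, so neither printed stretch reaches the start site of the RefSeq promoter. The capitals mark TGCGGT, a RUNX-type hexamer that lies 124 bases before the FUT4 start at 94543921.

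FUT4: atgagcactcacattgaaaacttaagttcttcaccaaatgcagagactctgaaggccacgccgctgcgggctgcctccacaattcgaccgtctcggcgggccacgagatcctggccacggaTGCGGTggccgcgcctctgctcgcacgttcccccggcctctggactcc

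CD68: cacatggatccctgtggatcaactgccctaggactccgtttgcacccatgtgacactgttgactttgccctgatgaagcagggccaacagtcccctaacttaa

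Promoters were found for 7 of the 10 genes, and only the 4 of these with enough counts to test were searched, FUT4, ITGAM, CD33 and CD68. The 250 bases before each start were searched on both strands for TGTGGT and TGCGGT, the RUNX-type hexamers. They were also searched for GAGGAA, the core of many sites of the myeloid factor PU.1. FUT4 was the only 1 of the 4 with a RUNX-type hexamer. TGCGGT occurs in 5.84% and TGTGGT in 11.0% of 35116 promoter windows of the same length. GAGGAA was found before ITGAM, CD33 and CD68 and occurs in 23.6% of the windows. The CD68 match lies 43 bases before the start, inside an annotated CD68 exon and beyond the printed stretch. A match of these letters is a description of the sequence and not of a bound site. No promoter entry was found for ITGAX, ITGB2 and CD93.

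FUT4 is 1 step of a longer pathway, and among 32 other genes of CD15 and selectin ligand synthesis, 14 had enough counts to test. Of these, 0 were called higher and 1 was called lower by edgeR. The lower one was ST3GAL4, a sialyltransferase that takes part in the synthesis of sialyl Lewis X. It was at 8.22 to 15.9 CPM in shPTBP1 and 22.0 to 35.9 CPM in shSCR (log2 fold change -1.25 ± 0.24, edgeR adjusted p = 0.00971), without overlap of the groups. Their median log2 fold change was -0.04. The fucosyltransferase genes FUT1, FUT2, FUT3, FUT5, FUT6 and FUT9 had no count in any library, as did SELP. A group of 4 libraries without a count allows up to 0.473 CPM in shPTBP1 and 0.480 CPM in shSCR (3 counts over the group, counting error only).

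Of the genes for the chains of CD11b/CD18, ITGB2 fell after KD and ITGAM did not pass the test. ITGB2 (ENSG00000160255.19, chromosome 21 at 44885953 to 44931989, minus strand), the shared beta 2 chain, was at 135, 91.2, 88.2 and 79.4 CPM in shPTBP1 replicates 1 to 4, from 214, 138, 134 and 124 counts. In shSCR it was at 138, 201, 140.0 and 174 CPM, from 225, 316, 210 and 271 counts. The groups did not overlap, but shPTBP1 replicate 1 lay just under the lowest shSCR library and well above the other 3 of its group. The means were 98.5 ± 25.1 and 163 ± 30.1 CPM, and the log2 fold change was -0.73 ± 0.16 (95% interval -1.12 to -0.34; edgeR adjusted p = 0.0193).

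With 1 library left out at a time, ITGB2 was called in 3 of 8 fits. Without shPTBP1 replicate 1 the log2 fold change was -0.92 (edgeR adjusted p = 0.00363). It was also called without shSCR replicate 1 (edgeR adjusted p = 0.0187) and without shSCR replicate 3 (edgeR adjusted p = 0.0262). Without shPTBP1 replicate 2, 3 or 4 the edgeR adjusted p was 0.0729, 0.0758 or 0.0680, and without shSCR replicate 2 or 4 it was 0.0547 or 0.0601. The direction was the same in all 8 of these fits, with log2 fold changes of -0.92 to -0.61. The number of genes called over the whole table also fell when a library was left out, from 242 lower and 179 higher to as few as 107 lower and 77 higher.

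ITGAM (ENSG00000169896.18, chromosome 16 at 31259967 to 31332892), the alpha chain of CD11b, was at 13.9, 5.29, 4.61 and 3.20 CPM in shPTBP1 replicates 1 to 4, from 22, 8, 7 and 5 counts. In shSCR it was at 14.1, 10.8, 10.003 and 14.1 CPM, from 23, 17, 15 and 22 counts. As for ITGB2, shPTBP1 replicate 1 stood apart from the other 3 of its group, and here it lay within the range of shSCR. The log2 fold change was -0.85 ± 0.38 (95% interval -1.78 to 0.09; edgeR adjusted p = 0.245), and the difference did not pass the test. Without shPTBP1 replicate 1 the log2 fold change was -1.48 and the edgeR adjusted p was 0.0283. Without any other library it was between -0.93 and -0.62 and the gene was not called. With 42 counts in shPTBP1 and 77 in shSCR, depth limits what can be said of ITGAM. PTBP1 itself was at 6.33 CPM in shPTBP1 replicate 1, the lowest value of the 8 libraries, beside 9.91, 8.56 and 14.7 CPM in replicates 2 to 4. The part of the other properties of this library in these values was not tested.

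**Figure D2:**
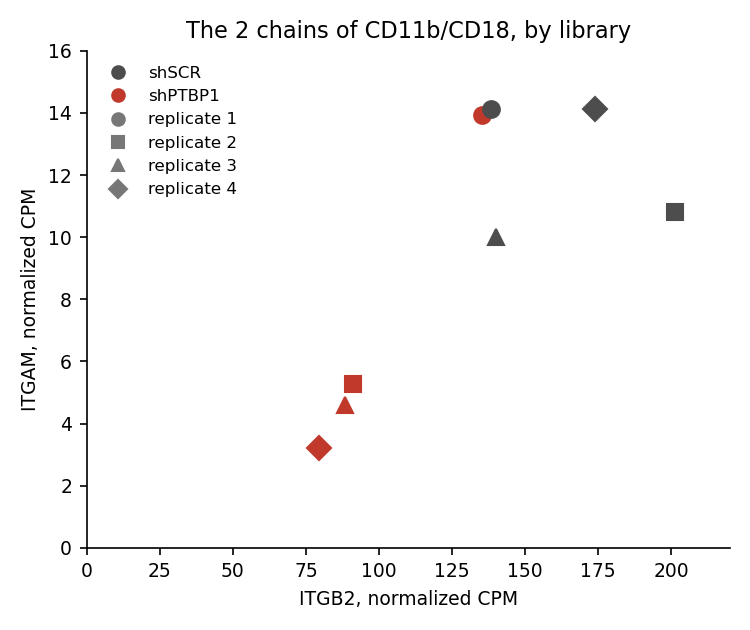
ITGB2 (horizontal axis) and ITGAM (vertical axis) in normalized CPM, with 1 point per library, grey for shSCR and red for shPTBP1. In shPTBP1, replicates 2 to 4 lie at the lower left, under 100 CPM of ITGB2 and under 6 CPM of ITGAM, and replicate 1 lies beside shSCR replicate 1 at 135 and 13.9 CPM.

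ITGAX (ENSG00000140678.17, chromosome 16 at 31355134 to 31382999), the alpha chain of CD11c, had 4, 0, 1 and 4 counts in the shPTBP1 libraries and 2, 1, 0 and 14 counts in the shSCR libraries. The groups overlapped, and 14 of the 17 shSCR counts came from replicate 4. The ratio of the group levels was 0.522 (95% exact counting interval 0.205 to 1.24), and the mean difference of -1.27 CPM was within the spread between libraries (exact two-sided permutation test, p = 0.857). Without shSCR replicate 4 the mean difference was 0.816 CPM, in the opposite direction. Most of these counts belonged to ITGAX-207, an isoform annotated as a retained intron, with 7 of 9 counts in shPTBP1 and 9 of 17 in shSCR, so that the coding isoform ITGAX-201 held 2 and 8 counts.

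Among 26 other genes of leukocyte integrins and their activators, 15 were tested, 1 was called lower and 1 higher, and the median log2 fold change was -0.10. TLN1, talin, which links integrin beta chains to actin, was at 39.9 to 49.5 CPM in shPTBP1 and 57.9 to 75.7 CPM in shSCR (log2 fold change -0.57 ± 0.12, edgeR adjusted p = 0.0189). RASGRP2, the exchange factor that activates RAP1 ahead of integrin activation, was at 69.0 to 92.2 CPM in shPTBP1 and 50.05 to 55.3 CPM in shSCR (log2 fold change 0.59 ± 0.11, edgeR adjusted p = 0.0076). For both genes the groups did not overlap, as for 12.7% of all genes tested. ITGAD, which encodes another partner of the beta 2 chain, had no count.

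CD68 (ENSG00000129226.14, chromosome 17 at 7579491 to 7582111) was the most abundant of the markers. In the shPTBP1 libraries it was at 411, 424, 411 and 454 CPM in replicates 1 to 4, from 649, 642, 625 and 709 counts. In the shSCR libraries it was at 285, 353, 365 and 325 CPM, from 463, 554, 548 and 507 counts. All shPTBP1 libraries lay above all shSCR libraries, and shSCR replicate 1 was the lowest. The means were 425 ± 20.2 and 332 ± 35.8 CPM, and the log2 fold change was 0.36 ± 0.08 (95% interval 0.16 to 0.55; edgeR adjusted p = 0.0194). Without each library in turn the log2 fold change was between 0.29 and 0.41, and the gene was called in 5 of 8 fits. The exceptions were the fits without shPTBP1 replicate 2 (edgeR adjusted p = 0.0561), without shPTBP1 replicate 4 (edgeR adjusted p = 0.0672) and without shSCR replicate 4 (edgeR adjusted p = 0.0591). An annotated long non-coding RNA gene on the same strand, ENSG00000264772, shares 1765 exon bases with CD68 and held 12 counts in all libraries, and ENSG00000233223 on the other strand shares 148 bases and held 39 counts.

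CD36 (ENSG00000135218.19, chromosome 7 at 80369575 to 80679277) had 1 count, in shPTBP1 replicate 1, and 0 in the other 7 libraries. The same was true of CD93 (ENSG00000125810.10, chromosome 20 at 23079360 to 23086324, minus strand). No difference could be seen for either at this depth. Of 19 other genes of scavenger receptors and lysosomal membrane glycoproteins, 6 were tested, and 1 was called higher and 0 lower by edgeR, with a median log2 fold change of -0.07. The higher one was LAMP2, which like CD68 is a glycoprotein of the lysosomal membrane, at 513 to 563 CPM in shPTBP1 and 418 to 475 CPM in shSCR (log2 fold change 0.28 ± 0.06, edgeR adjusted p = 0.0168). MSR1, CLEC7A, CD5L, TIMD4 and CLEC14A had no count.

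CD33 (ENSG00000105383.15, chromosome 19 at 51225064 to 51243860) was at 83.5, 78.0, 102 and 82.0 CPM in shPTBP1 replicates 1 to 4, from 132, 118, 155 and 128 counts. In shSCR it was at 75.0, 75.8, 70.7 and 67.4 CPM, from 122, 119, 106 and 105 counts. The groups did not overlap, although shPTBP1 replicate 2 and shSCR replicate 2 were close, and shPTBP1 replicate 3 was the highest. The means were 86.4 ± 10.7 and 72.2 ± 3.92 CPM (exact two-sided permutation test, p = 0.0286, the smallest that 70 regroupings of 4 against 4 allow). FUT4, CD68 and ITGB2 had the same p in this test, and the groups did not overlap for 12.7% of all genes tested. In the fit across all genes the log2 fold change of 0.26 ± 0.10 (95% interval 0.01 to 0.51) was not called (edgeR adjusted p = 0.187), and without each library in turn it was between 0.17 and 0.30 and was called in 0 of 8 fits.

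Of 16 genes of other Siglecs and of the phosphatases that they recruit, 2 had enough counts to test, with a median log2 fold change of 0.22. PTPN6, which encodes the phosphatase SHP-1, was the 1 called, and it was higher, at 214 to 247 CPM in shPTBP1 and 175 to 196 CPM in shSCR (log2 fold change 0.30 ± 0.07, edgeR adjusted p = 0.0283). CD22, MAG, SIGLEC6, SIGLEC8 and SIGLEC16 had no count.

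CD14 (ENSG00000170458.15, chromosome 5 at 140631728 to 140633700, minus strand) had 1 count in shPTBP1 replicate 1 and 0 in the other 7 libraries. CD86 (ENSG00000114013.16, chromosome 3 at 122055362 to 122121139) had 2, 0, 2 and 0 counts in shPTBP1 and 0, 2, 1 and 2 counts in shSCR. The ratio of the CD86 group levels was 0.789 with a 95% exact counting interval of 0.157 to 3.67, and the groups did not differ beyond the spread between libraries (exact two-sided permutation test, p = 0.8286). Among 20 genes of the Toll-like receptors and their adaptors 5 were tested, and among 16 co-stimulatory ligands and their partners 6 were tested. In both lists 0 genes were called by edgeR, with median log2 fold changes of -0.10 and -0.05. TLR3, TLR6, TLR8, CD80 and LY9 had no count.

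**Figure D3:**
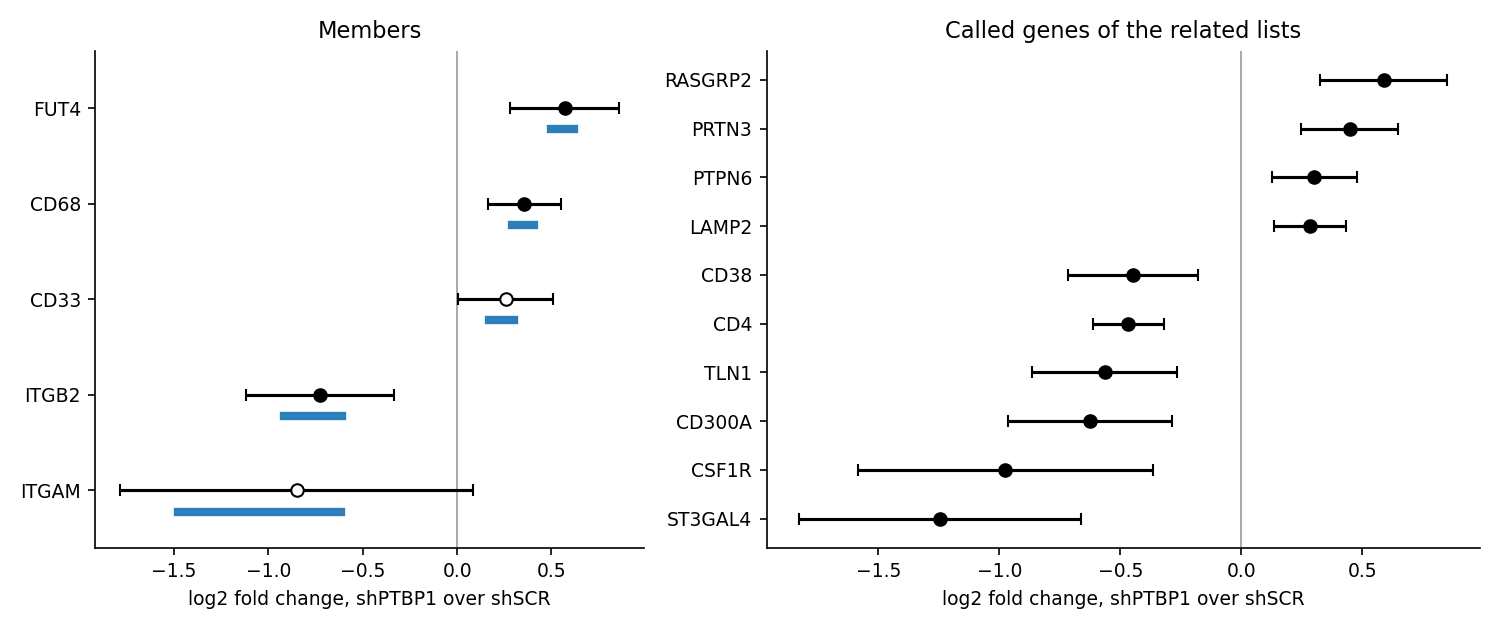
Log2 fold change of shPTBP1 over shSCR with its 95% interval, for the 5 tested marker genes (left) and for the genes of the related lists that were called (right). Filled points have an edgeR adjusted p under 0.05, and the blue bars give the range when each library is left out in turn, which for ITGAM runs from -1.48 to -0.62.

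Of the other myeloid, immature and defining markers, CD4, CD300A, CD38 and CSF1R fell and the granule gene PRTN3 rose. Of 40 Fc receptors and other myeloid surface markers, 20 were tested, and 2 were called lower and 0 higher by edgeR, with a median log2 fold change of 0.07. CD4, which monocytes carry as well as T cells, was at 217 to 233 CPM in shPTBP1 and 300.3 to 315 CPM in shSCR (log2 fold change -0.47 ± 0.06, edgeR adjusted p = 0.000597). CD300A, an inhibitory lipid receptor, was at 46.1 to 82.3 CPM in shPTBP1 and 94.3 to 111 CPM in shSCR (log2 fold change -0.62 ± 0.14, edgeR adjusted p = 0.0198). Of 13 genes listed for immature cells, 5 were tested, with a median log2 fold change of -0.26. The 1 called was CD38, an ectoenzyme that consumes NAD, at 66.4 to 78.8 CPM in shPTBP1 and 84.7 to 114 CPM in shSCR (log2 fold change -0.45 ± 0.11, edgeR adjusted p = 0.0321). The fall of CD38 alone is not read as a change in maturity. Of the 14 myeloid defining markers, 10 were tested. CSF1R, the receptor for macrophage colony-stimulating factor, was called lower, at 5.76 to 9.49 CPM in shPTBP1 and 12.8 to 17.8 CPM in shSCR (log2 fold change -0.97 ± 0.25, edgeR adjusted p = 0.0375). It had 9 to 15 counts in the shPTBP1 libraries and 20 to 28 in shSCR, so only in shSCR did every library reach the minimum count. PRTN3, a serine protease of the primary granules, was called higher, at 3307 to 4017 CPM in shPTBP1 and 2274 to 2902 CPM in shSCR (log2 fold change 0.45 ± 0.08, edgeR adjusted p = 0.00753). Over the 10 related lists, 85 of 220 genes were tested, and 6 were called lower and 4 higher. Of all genes tested, 3.19% were called lower and 2.36% higher, which is the comparison for the count of each list.

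Among these 10 called genes, ST3GAL4, RASGRP2, CD4 and PRTN3 were also called by edgeR in all 8 fits without 1 library. TLN1 was called in 6 of 8, with the exceptions without shPTBP1 replicate 3 (edgeR adjusted p = 0.0626) and without shSCR replicate 4, and CD300A in 6 of 8, with the exceptions without shPTBP1 replicate 2 (edgeR adjusted p = 0.0543) and without shSCR replicate 3. LAMP2 was called in 5 of 8 (edgeR adjusted p up to 0.0583), and lost its call without shPTBP1 replicate 3 or 4 or shSCR replicate 4. CD38 was called in 3 of 8 (up to 0.112), namely without shPTBP1 replicate 4 or shSCR replicate 3 or 4. PTPN6 was called in 2 of 8 (up to 0.0938), without shPTBP1 replicate 4 or shSCR replicate 4, and CSF1R in 1 of 8 (up to 0.116), without shPTBP1 replicate 1. The direction of each of the 10 was the same in all these fits.

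PTBP1 binds pyrimidine-rich RNA near splice sites, so the isoforms of the markers were compared as shares of their gene's counts. Over all genes, 61 of 5464 isoforms tested were called (1.12%), and 0 of them belonged to the markers (diffSpliceDGE of edgeR, adjusted p under 0.05 and a change of at least 10 percentage points). Of the markers, only CD68 had isoforms with enough counts for this test, and the shares of the others are given with exact permutation tests. The splice acceptors at which the annotated isoforms of CD33, CD68 and ITGAM part ways are shown. Each is the last 30 bases of the intron on the plus strand of hg38, with the final AG in capitals.

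CD33 exon 2, chr19:51225188-51225217: tgggccgagctgaccctcgtttccccacAG

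CD68-201, chr17:7579780-7579809: ggttgctaaccatctcctctctgccaaaAG

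CD68-202, chr17:7579861-7579890: catccttcacggtgacacccacggttacAG

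ITGAM-208, chr16:31297712-31297741: gggttggggcctgatactgtttgtgtttAG

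ITGAM-201, chr16:31297715-31297744: ttggggcctgatactgtttgtgtttagcAG

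Of these 30 bases, 18 are pyrimidines at the CD33 acceptor, 18 and 17 at the acceptors of CD68, and 15 and 16 at those of ITGAM.

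CD68-202 lacks the 81 bases at chr17:7579810-7579890 that CD68-201 holds, and its annotated start lies 147 bases further upstream. CD68-202 made up 10.02, 9.66, 8.16 and 7.90% of the CD68 counts in shPTBP1 replicates 1 to 4 and 6.48, 6.32, 10.4 and 8.48% in shSCR. The groups overlapped, with means of 8.93% ± 1.06 and 7.92% ± 1.92 (SD, n = 4 each; exact two-sided permutation test, p = 0.4). CD68-201 held the rest, 91.1% ± 1.06 and 92.1% ± 1.92. Both isoforms had more counts in shPTBP1 than in shSCR, with 2391 and 1907 counts of CD68-201 and 234 and 165 counts of CD68-202.

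ITGAM-208 differs from ITGAM-201 by 3 more bases at chr16:31297742-31297744, where the acceptors lie next to each other, and by its ends. Whether the reads resolve a difference of 3 bases was not tested, so the shares depend on how the reads were assigned. It held 2 counts in each shPTBP1 library, which were 9.09, 25.0, 28.6 and 40% of the ITGAM counts, and 7, 4, 3 and 7 counts in shSCR, which were 30.4, 23.5, 20 and 31.8%. The mean shares were 25.7% ± 12.8 and 26.4% ± 5.62 and did not differ beyond the spread between libraries (exact two-sided permutation test, p = 0.914). The lowest share, in shPTBP1 replicate 1, came from the library of its group with the most ITGAM-201 counts.

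CD33-203 lacks exon 2, the 381 bases at chr19:51225218-51225598 that encode the sialic acid-binding domain. CD33-203 held 9 of 533 CD33 counts in shPTBP1 and 3 of 452 in shSCR. By library the share was 2.27, 0, 2.58 and 1.56% in shPTBP1 replicates 1 to 4 and 0, 0, 1.89 and 0.952% in shSCR, and the groups overlapped (means 1.604% ± 1.15 and 0.710% ± 0.904; exact two-sided permutation test, p = 0.314). The full-length CD33-201 made up 97.0% ± 1.76 and 97.7% ± 1.84 of the counts. ITGB2 was read almost wholly as ITGB2-205, at 98.2% ± 1.35 in shPTBP1 and 97.9% ± 1.15 in shSCR (exact two-sided permutation test, p = 0.771), and FUT4 as FUT4-201 alone.

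**Figure D4:**
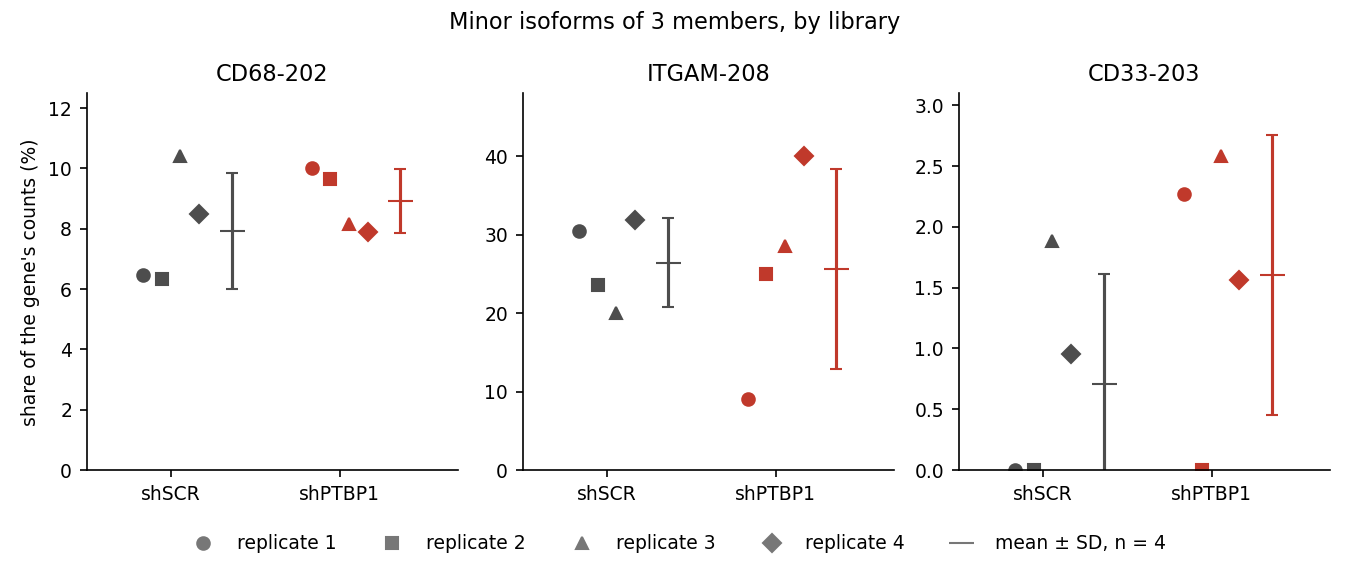
Share of the gene's counts (percent, vertical axes from 0, on a scale of their own) held by CD68-202, ITGAM-208 and CD33-203 in each shSCR (grey) and shPTBP1 (red) library, with the mean ± SD of each group and the bar cut at 0 for CD33-203 in shSCR. In all 3 panels the groups overlap, and the widest spread is that of ITGAM-208 in shPTBP1, from 9.09 to 40%.

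The genes whose level over the 8 libraries was most like that of each called marker are given as a description, by Pearson's r of log2 CPM. For FUT4 they were ARIH2 (r = 0.976), GNL3 (r = 0.975) and SYPL1 (r = 0.965). For CD68 they were C5orf15 (r = 0.977), CTPS1 (r = 0.962) and C19orf48P (r = 0.956), and for ITGB2 they were KDELR1 (r = 0.991), CAPN1 (r = 0.978) and FLII (r = 0.968). The 8 libraries fall into 2 groups that differ in the level of the marker, and the 3 genes with the highest r were picked from all tested genes outside the markers.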

How the data were processed

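Long nanopore cDNA reads were aligned by the authors to hg38 (minimap2), kept above a mapping quality limit, and assigned to annotated transcripts by StringTie. Tool versions, the annotation and whether strand was used are not given in the sources used here, so that reads of overlapping genes cannot be told apart with certainty. The deposited table holds whole transcript counts without normalization. A second deposited table, named TPM, holds CPM values that the authors made from each count and the total of its library, without transcript length (tested on the values). Amplified cDNA molecules are not independent, so counting intervals and limits for 0 counts cover counting error only. Intervals of log2 fold changes come from the edgeR SE and the t distribution with 6 degrees of freedom, and carry the spread between libraries.

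Transcripts were assigned to genes by Ensembl identifier in GENCODE version 44, which held 252562 of 254070. After filterByExpr (minimum count 10) and TMM normalization, edgeR 4.0.16 fitted the gene counts with group as the only term (quasi-likelihood test). Genes and isoforms were called when the Benjamini-Hochberg adjusted p was under 0.05. Isoform usage was tested with diffSpliceDGE, and single values with exact two-sided permutation tests. The code was tested on simulated data. Alternatives used DESeq2 1.42.0, limma 3.58.1, other normalizations and filters, a replicate block and each library left out. No source states that equal replicate numbers mark shared material.

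Members and related lists were chosen with earlier results of these data known. Named genes were the members, PTBP1 and PTBP2, each called gene of the lists, member isoforms with a mean of at least 10% of the counts, and the 3 genes most like each called member. CD33-203, ITGAX-207 and genes at 0 counts were named after their values were seen. CD68-202, at mean shares of 8.93% in shPTBP1 and 7.92% in shSCR, also lies under the 10% limit and is given as the other isoform of CD68.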

Additional observations from a re-analysis of the deposited data

Results flagged for a closer look

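In groups of 4 libraries, the gap of the highest or lowest library to its neighbour was compared with the range of the group, which chance alone flags in about 1 of 20 groups of continuous values. Of 50 groups examined, 4 stood out, all at very low counts. ITGAX reached 8.98 CPM in shSCR replicate 4, from 14 counts, while the other 3 shSCR libraries held 0 to 2 counts, and 9 of the 14 were of the retained-intron isoform ITGAX-207. CD14, CD36 and CD93 each reached 0.633 CPM in shPTBP1 replicate 1, which is 1 count, and were at 0 in the other 3 libraries of that group. A group with a single count always stands out in this way, so the rate of 1 in 20 does not apply to these 3 and nothing is read from them.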

How the results depend on the processing

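FUT4 and CD68 were called higher and ITGB2 lower in all 9 alternatives of tool, scale, filter or transcripts (DESeq2, limma-voom, limma-trend, DESeq2 size factors, library totals alone, no filter, a mean of at least 50 counts, protein coding transcripts, replicate block). With library totals alone the median of all genes was -0.04. Without each library in turn, 1 to 2 of the markers were called higher and 0 to 2 lower, and none of the 5 tested markers changed direction. The difference of mean CPM, not called in any setting, turned positive for ITGAX without shSCR replicate 4 (0.816) and for CD86 without shPTBP1 replicate 2 or 4 (0.055). Over the related lists, 2 to 6 genes were called higher and 3 to 6 lower without each library in turn, against 4 and 6 with all, and 4 were called lower with DESeq2, where CD38 missed the threshold and CSF1R had no adjusted p. CD38 and CSF1R were also lost with the replicate block, CSF1R without a filter, and PTPN6 with library totals alone and limma-trend. No isoform of the markers was called by diffSpliceDGE under any alternative or by limma diffSplice.

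The replicate block gave edgeR adjusted p of 0.0413 for FUT4, 0.0289 for CD68 and 0.0398 for ITGB2, and 4 lower and 4 higher in the related lists. Deviations of same-numbered libraries had correlations of -0.033 to 0.0089, so the numbers were not taken as pairs.

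Depth limits ITGAM, ITGAX, CD86, CD14, CD36 and CD93 most. Over the whole table, calls ranged from 107 lower and 77 higher (without shPTBP1 replicate 3) to 279 lower and 216 higher (no filter), DESeq2 gave 154 lower and 164 higher, and library totals alone gave 279 lower and 128 higher.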
